A study of Bos taurus with 60 samples.

Results

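The insulin-like growth factor (IGF) axis was followed through the dry period of dairy cows by 4 genes, the ligand IGF1, its receptor IGF1R, and the binding proteins IGFBP2 and IGFBP5. They are 4 of the 25223 loci counted, and all 4 were among the 14714 loci tested. Each was found by the locus that the study's supplementary lists pair with its symbol, which was XLOC_020043 for IGF1, XLOC_011721 for IGF1R, XLOC_010539 for IGFBP2 and XLOC_011052 for IGFBP5. Every one of these loci held a single ENSEMBL gene. In RefSeq's ARS-UCD2.0 annotation IGF1 lies on chromosome 5 and IGF1R on chromosome 21, while IGFBP2 and IGFBP5 are next to each other on chromosome 2. The counts were made on another build, so no coordinates are given here.

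The samples were mammary biopsies of 12 multiparous Holstein cows, each sampled at 5 time points, which gave 60 RNA-Seq libraries. The first biopsy (D-3) was taken in late lactation, 3 days before milking stopped at dry-off. The other 4 (D3, D7, D14, D25) fell into the dry period and are named by the days since then. From dry-off on, 6 cows were cooled (CL) with shade, fans and soakers and 6 were heat-stressed (HT) with shade only, in a separate pen, so pen and treatment cannot be told apart. The labels give neither the age of the cows nor a batch, and at D-3 no cow had yet received its treatment. Visible fat was trimmed from the biopsies, and each library is bulk RNA of the remaining tissue from 1 cow on 1 day.

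IGF-1 is a small secreted hormone that signals through IGF1R, a receptor tyrosine kinase that drives growth and survival of mammary epithelial cells. Most IGF-1 in tissue is held by secreted IGF binding proteins, which can keep it from the receptor or carry it there. In rodents IGFBP5 is known as a product of the involuting mammary epithelium, and IGFBP2 is another secreted binding protein made by several epithelia.

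Between 20525083 and 26183990 reads per library were assigned to loci. The share of those reads in 3 milk protein genes (CSN1S1, CSN2 and LALBA) spanned 0.190 to 49.8% at D-3 and 0.00982 to 7.45% at D3, with 2 separate groups of cows at D-3. Levels are given as CPM, read counts brought to a common library size, after scaling by the trimmed mean of M-values (TMM). With plain library sizes in place of TMM, the median log2 fold change of all loci at D3 relative to D-3 was 0.35 in place of -0.011, and the loci called there split into 2217 higher and 176 lower in place of 887 higher and 1330 lower. The shift of the median was 0.41, 0.43 and 0.48 at D7, D14 and D25 relative to D-3, and 0.064 at D7 vs. D3. The D14 library of cow 7965 stood apart. Its summed KRT7 and KRT19 level, which marks epithelium, was 6.19 CPM against 507 CPM or more in the other 59 libraries, and its DCN level, a fibroblast gene, was 5393 CPM against at most 1625 CPM elsewhere. The D14 and D25 libraries of cow 8513 correlated with the earlier libraries of cow 8660 (mean r of deviations from the day means 0.48 over 6 pairs) and not with those of cow 8513 itself (-0.050). Those of cow 8660 correlated more with earlier libraries of cow 8513 (0.39) than with their own (0.13). Whether labels were exchanged was not tested. Both cows were HT, so comparisons of day means and of HT with CL do not use this pairing, and tests within cows do.

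**Figure D1:**
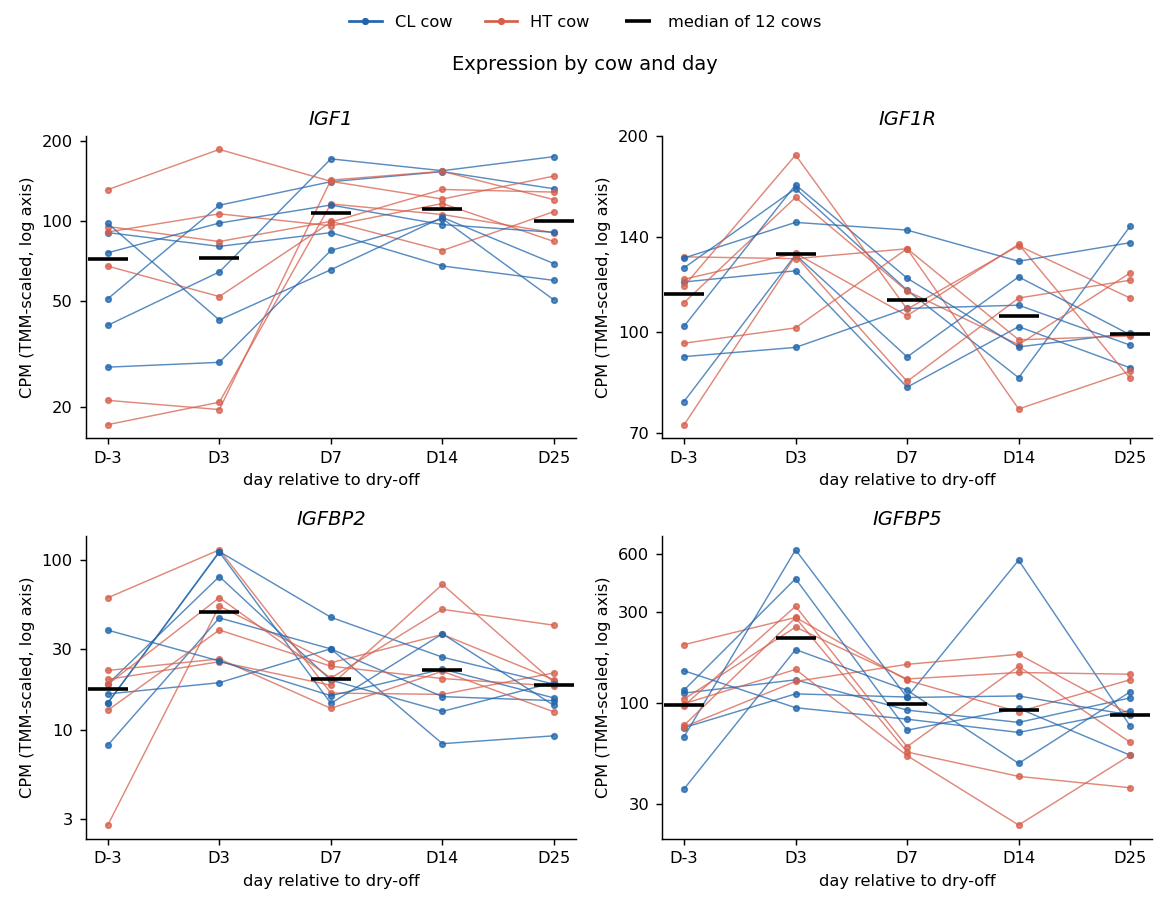
Level of each gene in every library (CPM after TMM scaling, log axis) against the day relative to dry-off, with 1 line per cow, CL in blue and HT in red, and the median of 12 cows as a black bar. IGFBP2 and IGFBP5 peaked at D3 in 9 of 12 cows each and IGF1R in 8 of 12, while the median of IGF1 stood higher from D7 on than at D-3 and D3.

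Transcripts of the ligand IGF1 had nearly the same median at D-3 and D3, and higher medians from D7 on. Its lowest, median and highest levels among the 12 cows were 17.2, 72.0 and 132 CPM at D-3 and 19.6, 72.5 and 186 CPM at D3. They were 65.8, 108 and 172 CPM at D7, 67.9, 111 and 155 CPM at D14 and 50.6, 99.9 and 175 CPM at D25. The ranges of the days overlapped, and the low tail of D-3 and D3 was absent from D7 on. Between D-3 and D7, 5 cows rose at least 2-fold, and these were the 5 lowest cows of D-3. The SD of log2 CPM between cows was 0.96 at D-3 and 1.02 at D3, then 0.40 at D7, 0.38 at D14 and 0.54 at D25.

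IGF1 did not pass the test at D3 vs. D-3 (log2 fold change 0.15 ± 0.27 SE, FDR = 0.774, higher in 7 of 12 cows), nor at D7 vs. D3 (0.59 ± 0.27, FDR = 0.246, higher in 10 of 12 cows). Against lactation, the mean level of IGF1 was 1.71-fold higher at D14 (log2 fold change 0.77 ± 0.27, FDR = 0.0370, higher in 9 of 12 cows). From D-3 to D14, 5 cows rose at least 2-fold, and these were again the 5 lowest cows of D-3. The values at D7 vs. D-3 (0.74 ± 0.27, FDR = 0.0714) and D25 vs. D-3 (0.63 ± 0.27, FDR = 0.110) fell short of the threshold. With the cow as a block, which sets each library against the same cow's others, IGF1 was called at all 3 of these days (FDR = 0.0270, 0.00973 and 0.0494). The test of any difference among the 5 days gave IGF1 an FDR of 0.0619, and 0.00969 with the cow block. The exact sign-flip test over the 12 within-cow differences gave p = 0.00977 at D7 vs. D-3 and p = 0.0166 at D14 vs. D-3, with adjusted values over all loci of 0.231 and 0.157. The D14 call was lost, with FDR from 0.0579 to 0.123, on leaving out any one of cows 7965, 8541, 8564, 8647, 8660 and 8713, with log2 fold changes of 0.63 to 0.77. It was also lost without the D14 library of cow 7965 alone (0.73, FDR = 0.0636) and when only the D-3 and D14 libraries were fitted (0.79, FDR = 0.0685).

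The cows with little IGF1 at D-3 were the ones whose libraries were rich in milk protein transcripts. Cows 7965, 8541, 8564, 8647 and 8713, 3 CL and 2 HT, had 40.2 to 49.8% of their reads in the 3 milk protein genes, and the other 7 had 0.190 to 8.03%. IGF1 at D-3 was 17.2 to 51.1 CPM in the first 5 cows and 67.8 to 132 CPM in the other 7, with no overlap. At D3 the same 5 cows spanned 19.6 to 115 CPM and the 7 others 42.5 to 186 CPM, and at D7 the ranges were 77.7 to 172 and 65.8 to 141.4 CPM. At D14, the day of the IGF1 call, they were 102 to 155 and 67.9 to 132 CPM. From D-3 to D14 the median went from 28.3 to 154 CPM in the 5 cows and from 91.2 to 103 CPM in the 7 others. Cow 8713 went from 19.6 CPM at D3 to 143 CPM at D7, a 7.30-fold step that was the steepest of the 12. At D-3 the TMM factors of these 5 libraries were 0.300 to 0.419 and those of the other 7 were 1.02 to 1.21. A smaller factor gives a higher CPM. Before any scaling the read counts of IGF1 were 156 to 531 in these 5 libraries and 1626 to 3240 in the other 7. The part of this scaling in the size of the IGF1 difference was not tested. The read counts of IGF1R were apart too, at 855 to 1301 in these 5 cows and 1724 to 3186 in the other 7. Those of IGFBP2 were 25 to 169 and 216 to 1465, also with no overlap. Those of IGFBP5 overlapped, at 562 to 1166 and 951 to 4952. In CPM the 2 sets overlapped at D-3 for the receptor and the binding proteins. IGF1R was 102 to 130 CPM in the milk-rich cows and 71.9 to 130 CPM in the others, IGFBP2 was 2.76 to 16.3 against 8.13 to 59.9 CPM, and IGFBP5 was 67.0 to 117 against 35.8 to 203 CPM. For IGFBP2 the overlap came from cow 8603 alone, at 8.13 CPM, and the rest of the others had 18.5 CPM or more.

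Because the cows fell into these 2 clusters, no correlation over all 12 was computed for the milk protein share. Among the 7 cows with the low share, no relation of the 4 genes to it passed the test (log2 scales, 4 relations). So few cows cannot show that a relation is absent. Pearson's r was 0.46 for IGF1 (exact permutation p = 0.288), -0.23 for IGF1R (exact p = 0.656), 0.014 for IGFBP2 (exact p = 0.979) and -0.032 for IGFBP5 (exact p = 0.939), all with an adjusted p of 0.979. Spearman's rho was 0.143, -0.107, 0.0357 and -0.321 in the same order (exact permutation p = 0.783, 0.840, 0.963 and 0.498, all adjusted to 0.963). Without the 2 cows farthest from the median share, r for IGF1 turned to -0.62 (exact p = 0.292, 5 cows). The 5 milk-rich cows are too few for a correlation of their own.

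**Figure D2:**
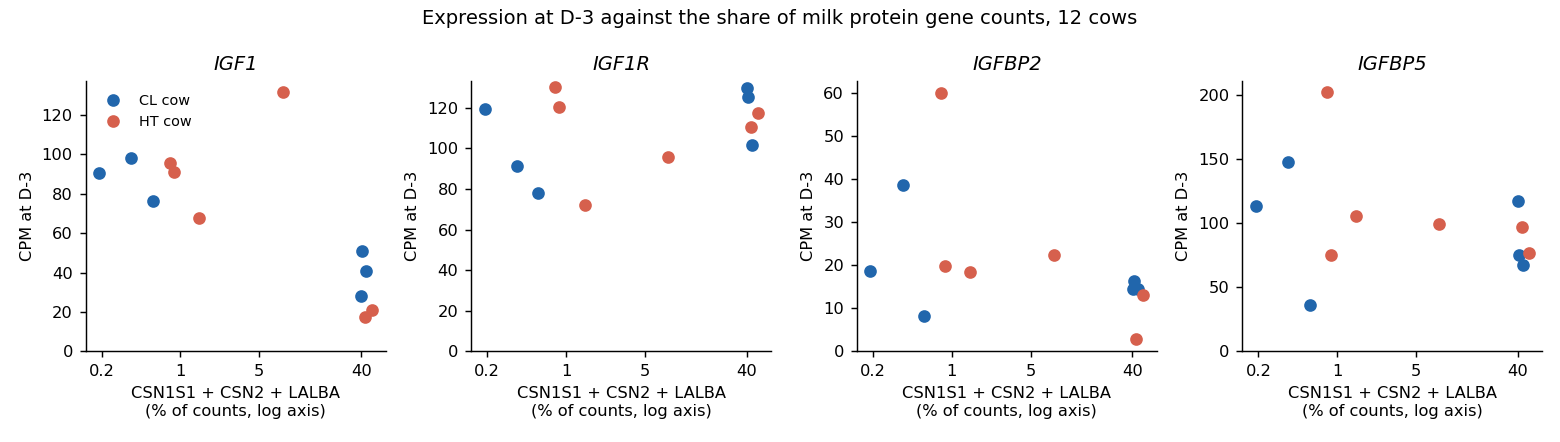
Level of each gene at D-3 (CPM) against the summed share of CSN1S1, CSN2 and LALBA in the reads of the same library (%, log axis), 1 point per cow, CL in blue and HT in red. The 5 cows at 40.2 to 49.8% have the 5 lowest IGF1 levels, at most 51.1 CPM, and are mixed with the other 7 cows for IGF1R and IGFBP5. For IGFBP2, cow 8603 (8.13 CPM) is the only one of the other 7 within their range, and the rest are at 18.5 CPM or more.

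Transcripts of the receptor IGF1R rose at D3, by less than those of the binding proteins, and the median at D7 was close to that of D-3. The lowest, median and highest levels were 71.9, 114 and 130 CPM at D-3, 94.6, 132 and 187 CPM at D3, and 82.2, 112 and 143 CPM at D7. At D14 they were 76.1, 106 and 136 CPM and at D25 84.8, 99.2 and 145 CPM. Between cows IGF1R varied less than any of the other 3 genes at every day, with an SD of log2 CPM of 0.26 to 0.29. At D3 vs. D-3 IGF1R rose 1.29-fold (log2 fold change 0.37 ± 0.11, FDR = 0.0167) and was higher in 11 of 12 cows, cow 8513 being level at 130 and 129 CPM. At D7 vs. D3 the log2 fold change was -0.32 ± 0.11 (FDR = 0.104, lower in 9 of 12 cows), and D25 vs. D3 was called at -0.37 ± 0.11 (FDR = 0.0306, lower in 11 of 12 cows). Levels at D7, D14 and D25 were within 0.056 log2 units of D-3 (FDR of at least 0.796).

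The exact sign-flip test gave IGF1R p = 0.000977 at D3 vs. D-3 and again at D25 vs. D3, with adjusted values of 0.0575 and 0.0273. The D3 call was lost without cow 8647 (FDR = 0.0622), without cow 8713 (FDR = 0.0566) and when only the D-3 and D3 libraries were fitted (FDR = 0.0606). Without cow 8668 the D7 vs. D3 difference of IGF1R was called (-0.38, FDR = 0.0497). The D25 vs. D3 call was lost without cow 8314, 8513, 8541, 8647 or 8713 (FDR from 0.0516 to 0.0985) and with plain library sizes (log2 fold change -0.22, FDR = 0.613, with the median of all loci at 0.14). On that scale IGF1R was instead called above D-3 at D14 (0.51, FDR = 0.0252) and D25 (0.55, FDR = 0.0200), where the medians of all loci were 0.43 and 0.48.

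The binding protein IGFBP2 was higher at D3 and lower again at D7. Its highest day mean was 3.18-fold its lowest, the largest such ratio of the 4 genes, against 2.89 for IGFBP5. Whether these 2 courses differ was not tested. The lowest, median and highest levels were 2.76, 17.4 and 59.9 CPM at D-3 and 18.96, 49.6 and 115 CPM at D3. They returned to 13.4, 19.9 and 46.0 CPM at D7, 8.30, 22.5 and 71.8 CPM at D14 and 9.23, 18.4 and 41.3 CPM at D25. The rise was seen in 11 of 12 cows. It was at least 2-fold in 7 of them and reached 19.4-fold in cow 8541, from 2.76 to 53.6 CPM, whose D-3 value rests on 25 reads. Only cow 8686 went down, from 38.6 to 25.4 CPM, and 3 cows (7965, 8314 and 8668) moved by less than 1.5-fold. The mean level was 2.87-fold higher at D3 than at D-3 (log2 fold change 1.52 ± 0.33, FDR = 0.000909). From D3 to D7 it fell (-1.38 ± 0.32, FDR = 0.0123), with 11 of 12 cows lower and 6 of them at least 2-fold lower. By D25 IGFBP2 was below D3 in 12 of 12 cows (-1.67 ± 0.33, FDR = 0.000896), and at D7, D14 and D25 it did not pass the test against D-3 (log2 fold changes 0.14, 0.46 and -0.15, FDR of at least 0.324).

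In the exact sign-flip test IGFBP2 had p = 0.00391 at D3 vs. D-3, p = 0.00195 at D7 vs. D3 and p = 0.000488, the smallest that 12 cows allow, at D25 vs. D3. The adjusted values were 0.0605, 0.0798 and 0.0244. The fall at D7 was not called without cow 8564 (log2 fold change -1.22, FDR = 0.0829), the cow with the steepest fall from 111 to 14.3 CPM, nor with plain library sizes (-1.24, FDR = 0.193).

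IGFBP5 had the same course from a higher read count. The lowest, median and highest levels were 35.8, 98.5 and 203 CPM at D-3 and 94.96, 221 and 633 CPM at D3. At D7 they were 53.4, 99.8 and 160 CPM and at D25 36.3, 87.4 and 142 CPM. At D14 the median was 92.3 CPM and the range 23.2 to 559 CPM, the top value being the library of cow 7965 that held almost no epithelial keratin. The other 11 cows reached at most 180 CPM at D14. At D3 vs. D-3 IGFBP5 was 2.49-fold higher (log2 fold change 1.32 ± 0.33, FDR = 0.00363), in 11 of 12 cows. The rise ranged up to 9.45-fold in cow 8647, from 67.0 to 633 CPM, and cow 8686 again went down, from 148 to 94.96 CPM. At D7 vs. D3 it fell (-1.36 ± 0.33, FDR = 0.0141) in 11 of 12 cows, cow 8314 being the exception at 130 and 160 CPM. At D25 all 12 cows were below their D3 level (-1.53 ± 0.33, FDR = 0.00203), and D7, D14 and D25 did not pass the test against D-3 (log2 fold changes -0.047, 0.40 and -0.22, FDR of at least 0.403).

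The exact sign-flip test gave IGFBP5 p = 0.00293 at D3 vs. D-3, p = 0.00244 at D7 vs. D3 and p = 0.000488 at D25 vs. D3, adjusted to 0.0605, 0.0828 and 0.0244. The D7 vs. D3 call was lost without cow 8541, 8564 or 8647 (FDR from 0.0627 to 0.0829) and with plain library sizes (-1.20, FDR = 0.138). The D14 mean of IGFBP5 depended on the library of cow 7965. With it the log2 fold change at D14 vs. D7 was 0.44, and without it -0.051, neither called.

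**Figure D3:**
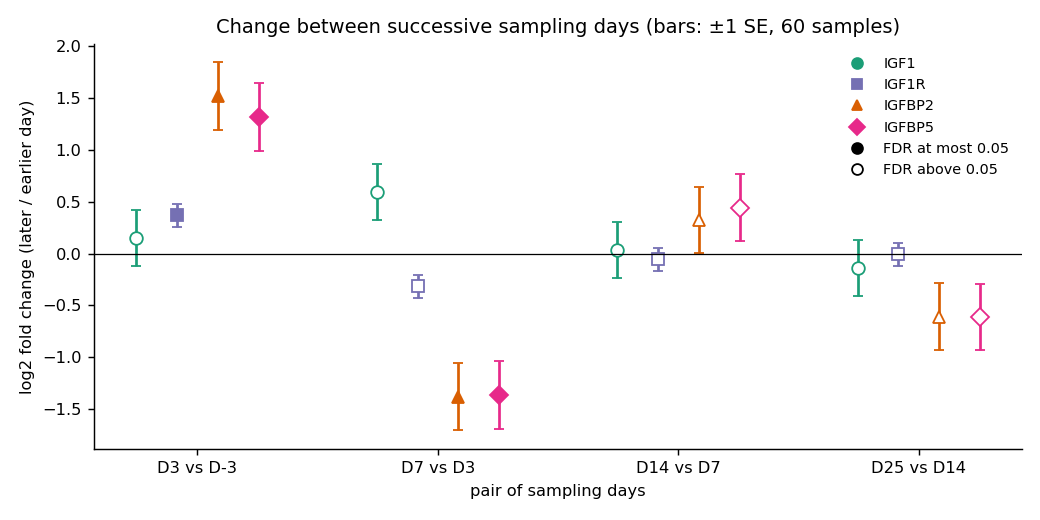
Fitted log2 fold change of each gene between successive sampling days, later over earlier, with bars of 1 SE from the fit of 60 libraries; filled symbols passed an FDR of 0.05. IGF1R, IGFBP2 and IGFBP5 are filled above zero at D3 vs. D-3, IGFBP2 and IGFBP5 are filled below zero at D7 vs. D3, and no gene is filled at D14 vs. D7 or D25 vs. D14.

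At D3 vs. D-3, 3 of the 4 genes were called, all upward, beside 15.1% of all loci tested called in either direction, 6.03% upward and 9.04% downward. At D7 vs. D3, 2 of 4 were called, both downward, beside 2.92% of loci in either direction and 0.625% upward and 2.30% downward. The 2 at D7 vs. D3 became 1 without cow 8541, 0 without cow 8564 and 1 without cow 8647. Calls over all loci without these cows are not given, so these drops are not read as a result about the genes. The lists that pair symbols with loci are held in part and in order of p for these 2 comparisons, so a gene found in them tended to have a low p there, and these counts are not independent of that. No gene was called at D14 vs. D7 (0% of loci, 257 loci at an unadjusted p under 0.05) or at D25 vs. D14 (0.0612% of loci). For D14 vs. D-3 the count was 1 of 4, upward, beside 19.5% of loci (8.23% upward and 11.3% downward). For D25 vs. D3 it was 3 of 4, downward, beside 6.02% (1.40% upward and 4.62% downward). For D7 vs. D-3 it was 0 of 4 beside 8.46% (1.34% upward and 7.12% downward), and for D25 vs. D-3 0 of 4 beside 13.1% (3.96% upward and 9.16% downward). With the cow block, which called 21.5% of loci at D3 vs. D-3, 5.99% at D7 vs. D3, 13.3% at D7 vs. D-3, 26.7% at D14 vs. D-3, 20.4% at D25 vs. D-3 and 12.0% at D25 vs. D3, IGF1 was added at D7 and D25 vs. D-3. For a difference among any of the 5 days, IGF1R, IGFBP2 and IGFBP5 were called (FDR = 0.0226, 0.000142 and 0.000622) beside 21% of loci, and with the cow block all 4 genes were, beside 31.9%. By the sign-flip test no locus at all passed an FDR of 0.05 at D3 vs. D-3 or D7 vs. D3, although 4756 and 3165 loci had p under 0.05. At D25 vs. D3 it called 11.7% of loci and 3 of the 4 genes.

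The ratio of a binding protein to the ligand within a library does not depend on how the library is scaled. These ratios were formed after the values had been seen and are given as a description. For IGFBP2 over IGF1 the log2 ratio averaged -1.79 in lactation with an SD of 0.80 over 12 cows, then -0.31 ± 1.57 at D3 and -2.35 ± 0.40 at D7. It went up at D3 in 10 of 12 cows and down at D7 in 11 of 12. For IGFBP5 over IGF1 it was 0.71 ± 1.05 at D-3, 1.81 ± 1.60 at D3 and -0.25 ± 0.72 at D7, up at D3 in 11 of 12 cows and down at D7 in 11 of 12. At D14 and D25 both ratios stayed below those of D-3 on average, at -2.22 and -2.49 for IGFBP2 and at -0.23 and -0.28 for IGFBP5. The ratio of IGFBP5 to IGFBP2 had a mean log2 value between 1.99 and 2.51 at every day. For receptor over ligand the log2 ratio was 0.90 ± 1.07 at D-3 and 1.16 ± 1.18 at D3, then 0.014 ± 0.45 at D7, with 11 of 12 cows going down from D3 to D7.

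Cows with a large early rise in one binding protein tended to have it in the other. Over the 12 cows, the change from D-3 to D3 in log2 CPM of IGFBP2 was related to that of IGFBP5 with Pearson's r = 0.74 (permutation p = 0.00631) and Spearman's rho = 0.713 (permutation p = 0.0118). For IGF1R and IGFBP5 r was 0.73 (permutation p = 0.00728) and rho 0.783 (permutation p = 0.00372). Adjusted over the 6 pairs of genes, the p of r was 0.0218 in both cases and that of rho 0.0353 and 0.0223. Without the 2 cows farthest from the median, r was 0.74 (permutation p = 0.0180) and 0.79 (permutation p = 0.00383). IGF1R and IGFBP2 gave r = 0.49 and rho = 0.510 (permutation p = 0.103 and 0.0921). The 3 pairs with IGF1 gave r from 0.23 to 0.47 and rho from 0.175 to 0.455 (permutation p of at least 0.119 and 0.140). Changes of 2 genes in 1 cow share the same pair of libraries and their scaling. Within the 7 cows of low milk protein share r was 0.73 for IGFBP2 with IGFBP5 (exact p = 0.0544) and 0.78 for IGF1R with IGFBP5 (exact p = 0.0282), adjusted to 0.163 each. Without the 2 farthest of those 7 cows, r fell to -0.071 and 0.36. With plain library sizes all 6 relations passed over the 12 cows, with r from 0.62 to 0.89, and IGF1R with IGFBP5 in the 7 cows gave 0.81, and 0.86 without the 2 farthest.

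Of 41 genes of the IGF system listed by role, 14 were paired with a locus and all 14 were tested. Apart from the 4 genes above they included the insulin receptor INSR, the binding proteins IGFBP7 and IGFBPL1, IGFALS, the growth hormone mediator STAT5B, and IRS2, GRB10 and PIK3R2 downstream of the receptor. None of 4 listed proteases and inhibitors of binding proteins was paired, so their levels were not analysed here. At D3 vs. D-3, 8 of the 14 were called, 6 upward and 2 downward, beside 15.1% of all loci (6.03% upward and 9.04% downward). Their median log2 fold change was 0.37 against -0.011 over all loci. At D7 vs. D3, 4 were called, all downward, beside 2.92% of all loci (2.30% downward), with a median of -0.35 against 0.0011. None was called at D14 vs. D7 (0% of all loci) or D25 vs. D14 (0.0612%). At D25 vs. D3, 8 were called, 1 upward and 7 downward, beside 6.02% of all loci (1.40% upward and 4.62% downward). The counts changed on leaving out single milk-rich cows. The 8 at D3 vs. D-3 became 5 without cow 8541, 4 without cow 8564, 3 without cow 8647 and 3 without cow 8713. The 4 at D7 vs. D3 became 1, 0, 1 and 2 without the same cows. Calls over all loci in these reduced fits are not given, so the drops are not read as a result about these genes. The partial pairing described above applies to these counts too.

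Among the other binding proteins, IGFALS, which encodes the acid-labile subunit of the circulating IGF complex, rose at D3 (log2 fold change 1.53 ± 0.36, FDR = 0.00228, 11 of 12 cows) from a mean of 2.09 to 6.10 CPM. It had fallen by D25 relative to D3 (-1.17 ± 0.35, FDR = 0.0337). IGFBPL1, an IGFBP-like protein near the detection limit, went from a median of 0.35 CPM, with 4 cows at 0 reads, to 1.98 CPM at D3 and 0.72 CPM at D7. Its fitted changes were 2.41 ± 0.76 (FDR = 0.0235) and -2.79 ± 0.77 (FDR = 0.0325), and the top cow alone had 31.5 CPM at D3. IGFBP7, a related secreted protein with low affinity for IGF, was not called (-0.098 ± 0.14, FDR = 0.706 at D3 vs. D-3, and 0.33 ± 0.14, FDR = 0.204 at D7 vs. D3). INSR rose at D3 (0.37 ± 0.13, FDR = 0.0450, 11 of 12 cows), and its difference at D7 vs. D3 was -0.39 ± 0.13 (FDR = 0.0891, and 0.0321 with the cow block).

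Of the growth hormone axis, STAT5B, a transcription factor of the growth hormone and prolactin pathways, fell at D3 (log2 fold change -0.57 ± 0.18, FDR = 0.0192, 10 of 12 cows lower), and with plain library sizes its value was -0.0022, below the 0.35 median of all loci on that scale. STAT5B was also called below D-3 at D14 (-0.65 ± 0.18, FDR = 0.00697, and 0.0080 with plain library sizes). Downstream of the receptor, GRB10, an adaptor that restrains both receptors, fell at D7 (-0.43 ± 0.11, FDR = 0.0240, 10 of 12 cows lower) after 0.28 ± 0.11 at D3 (FDR = 0.0797, and 0.0377 with the cow block). GRB10 was also called below D3 at D25 (-0.48 ± 0.11, FDR = 0.00558, 9 of 12 cows lower). The adaptor IRS2 had 0.45 ± 0.21 at D3 (FDR = 0.145) and was called below D3 at D25 (-0.74 ± 0.21, FDR = 0.0232, 12 of 12 cows lower). The locus of PIK3R2, a PI3 kinase subunit, joins 2 genes, so its values are uncertain. It had 0.050 ± 0.094 at D3 vs. D-3 (FDR = 0.785) and was called above D-3 at D7, D14 and D25 (0.32, 0.37 and 0.39, FDR = 0.0237, 0.00474 and 0.00406) and above D3 at D25 (0.34, FDR = 0.0206).

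**Figure D4:**
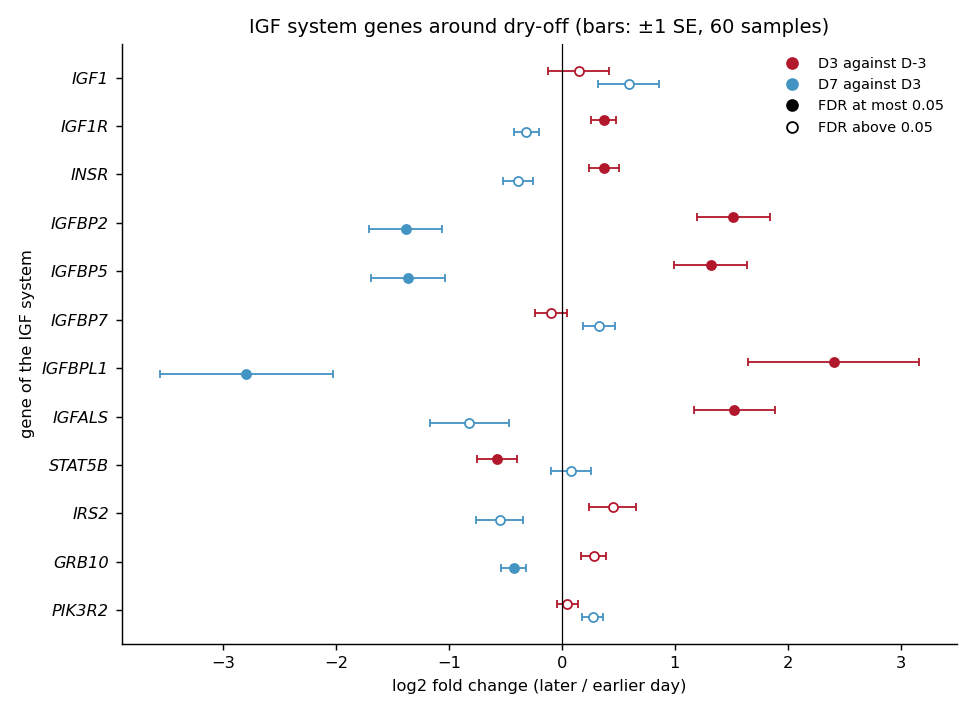
Fitted log2 fold change, with bars of 1 SE from the fit of 60 libraries, of 12 of the 14 paired IGF system genes at D3 vs. D-3 (red) and D7 vs. D3 (blue); filled points passed an FDR of 0.05. IGFBP2, IGFBP5 and IGFBPL1 are filled on opposite sides of zero in the 2 comparisons, IGFBPL1 with the widest bars, and STAT5B is filled below zero at D3.

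Each member was set against the 3006 tested loci that carry a symbol, by Pearson's r of log2 CPM over the 60 libraries. These are descriptions over libraries that share cows and days. The 5 most alike loci for IGF1 were SLC1A3 (r = 0.85), ATRNL1 (0.82), ROBO1 (0.81), ROR1 (0.81) and CCBE1 (0.80). For IGF1R they were LOC507550 (0.76), SYNJ2 (0.75), PPFIBP2 (0.75), FAS (0.75) and SOWAHA (0.73). Among the nearest to IGFBP2 were NPTXR (0.80), SEMA4F (0.75), SFN (0.75) and GNG5 (0.75). IGFBP5 was nearest to ATP2B4 (0.83), TPM2 (0.77), PLP2 (0.76), ACTA2 (0.74) and ACTR1B (0.74). The 60 libraries include the D14 library of cow 7965, where IGFBP5 was 559 CPM against at most 180 CPM in the other D14 libraries. Its part in these likenesses was not tested. At D3 vs. D-3 the loci most alike to IGF1 had log2 fold changes from -0.056 to 0.15, none called, and the 4 loci named for IGFBP2 had 0.59 to 1.502, all called. Of those named for IGF1R, FAS and SYNJ2 were not called (FDR = 0.0570 and 0.0945), nor was ACTR1B of those named for IGFBP5 (FDR = 0.309). The likeness was taken over libraries that include these days, and loci with a symbol come from the partial lists in order of p described above. These calls are therefore not independent of how the loci were chosen. Of all loci tested, 15.1% were called at D3 vs. D-3. Among themselves the 4 genes were less alike. IGFBP2 and IGFBP5, neighbours on the chromosome, had r = 0.56, which ranked IGFBP2 at 173 of 3006 loci by likeness to IGFBP5. IGF1 had r = 0.067 with IGFBP2, -0.22 with IGFBP5 and -0.25 with IGF1R.

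Marker genes of several cell types moved in the same comparisons. Of 6 listed myoepithelial markers 3 were paired (KRT5, KRT17 and ACTA2), and their summed level ran from 352 to 1699 CPM at D-3, 633 to 2842 CPM at D3 and 579 to 1160 CPM at D7. At D3 vs. D-3, 2 of these 3 rose, and at D7 vs. D3 all 3 fell, with median log2 fold changes of 0.82 and -1.04. Of all loci, 6.03% rose and 9.04% fell at D3 vs. D-3, and 0.625% rose and 2.30% fell at D7 vs. D3. Of 6 listed epithelial markers 2 were paired (KRT7 and KRT19), with sums of 698 to 1796 CPM at D-3, 732 to 5218 CPM at D3 and 507 to 1320 CPM at D7, and 1 of the 2 rose and then fell. The 2 paired endothelial markers (KDR and EMCN, of 6) both fell at D3, with sums of 82.3 to 423 CPM at D-3 and 80.8 to 207 CPM at D3. For fibroblasts 1 of 8 markers was paired (DCN), at 386 to 1056 CPM at D-3, 405 to 1205 CPM at D3 and 633 to 1625 CPM at D7. DCN was not called at D3 vs. D-3 or at D7 vs. D3. At D14 vs. D-3, where IGF1 was called, DCN rose (log2 fold change 0.93, FDR = 0.00534). Of all loci, 8.23% rose and 11.3% fell in that comparison. The D14 range of DCN was 561 to 5393 CPM, with the library of cow 7965 at the top. Adipocyte markers (ADIPOQ and FABP4, 2 of 6) summed to 50.4 to 583 CPM at D-3 and 12.0 to 193 CPM at D3, and 1 of the 2 fell. At D14 vs. D-3 ADIPOQ rose (1.42, FDR = 0.0207) and FABP4 was not called (-0.99, FDR = 0.140). The muscle genes MYH2 and MYH7 (2 of 6) stayed at or below 16.7 CPM in every library, MYH2 rising at D3 and falling at D7. None of the paired epithelial, myoepithelial, endothelial or muscle markers was called at D14 vs. D-3. No listed marker of macrophages or of T and B cells was paired. In bulk tissue a change in the number of cells of a type and a change in RNA per cell cannot be told apart. The part of these cell types in the course of IGF1, IGF1R, IGFBP2 and IGFBP5 was not tested.

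Between HT and CL cows none of the 4 genes was called at any day, nor was any of the 14 paired IGF system genes. No locus of the 14714 passed an FDR of 0.05 in these fits (0% at each day), while 298 loci before treatment and 97, 672, 247 and 333 loci on the 4 later days had an unadjusted p under 0.05. At D3 IGFBP2 was 25.2, 46.2 and 115 CPM in HT cows (lowest, median and highest of 6) and 18.96, 62.8 and 112 CPM in CL cows. IGFBP5 was 130, 265 and 321 CPM in HT and 94.96, 162 and 633 CPM in CL cows. For IGF1R the values were 101, 131.4 and 187 CPM in HT and 94.6, 139 and 168.1 CPM in CL cows, and for IGF1 19.6, 68.0 and 186 CPM and 29.5, 72.5 and 115 CPM. HT and CL overlapped for all 4 genes at this day. The log2 fold changes of HT over CL at D3 were -0.31 ± 0.47 for IGFBP2 (exact permutation p = 0.719), -0.19 ± 0.45 for IGFBP5 (exact p = 0.829), 0.0041 ± 0.18 for IGF1R (exact p = 0.911) and 0.12 ± 0.53 for IGF1 (exact p = 0.771), all with an edgeR FDR of 1. The exact test compares means of log2 CPM, and there the difference had the opposite sign for IGFBP5 (0.12) and IGF1 (-0.17). Without cow 8647 the fitted value of IGFBP5 was 0.27.

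The intervals show what 6 cows per group could resolve. For IGF1R the 95% interval of the ratio of HT to CL was 0.767 to 1.31 at D3 and 0.747 to 1.19 at D25. For IGF1 it was 0.495 to 2.40 at D3 and 0.747 to 1.47 at D7, and for IGFBP5 0.449 to 1.70 at D3 and 0.251 to 1.76 at D14. A 2-fold difference in either direction lay inside the interval for IGF1 at D3. Among the 4 genes the lowest p-values were those of IGFBP2 late in the dry period. At D14 it was 16.2, 29.3 and 71.8 CPM in HT and 8.30, 19.2 and 36.8 CPM in CL cows (log2 fold change 0.83 ± 0.42, edgeR p = 0.0733, exact permutation p = 0.130). At D25 it was 12.8, 19.4 and 41.3 CPM in HT and 9.23, 15.1 and 19.01 CPM in CL cows (0.55 ± 0.26, edgeR p = 0.0514, exact permutation p = 0.0996), the interval of the ratio being 0.997 to 2.13. Leaving out 1 cow took the log2 fold change as low as 0.50 at D14, without cow 8314, and 0.27 at D25, without cow 8660, whose late libraries are in doubt as described above. At D7 the sign was the opposite (-0.42 ± 0.27, exact permutation p = 0.303). The edgeR FDR over all loci was 0.998 at D14, 0.997 at D25 and 0.959 at D7. At D-3, before treatment, the log2 fold changes of the 4 genes were 0.012 to 0.32, with exact permutation p of at least 0.463.

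The change of each gene since D-3 was also compared between 6 HT and 6 CL cows, and the exact permutation p was at least 0.372 for every gene and day. The test of treatment by time over the 5 days in edgeR gave each of the 4 genes an FDR of 1, beside 0% of loci called and 85 loci at an unadjusted p under 0.05. By treatment, the mean within-cow log2 change from D-3 to D3 was 1.68 ± 1.51 (SD, n = 6) for IGFBP2 in CL and 1.5 ± 1.47 in HT cows. For IGFBP5 it was 1.29 ± 1.47 in CL and 1.11 ± 0.59 in HT cows, for IGF1R 0.36 ± 0.32 and 0.38 ± 0.36, and for IGF1 0.15 ± 0.81 and 0.054 ± 0.33.

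**Figure D5:**
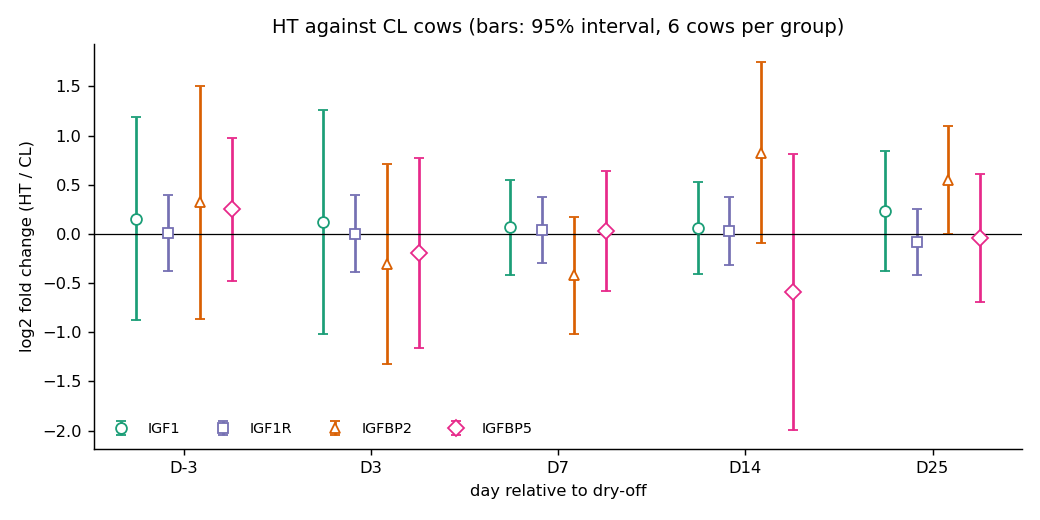
Fitted log2 fold change of HT over CL cows for each gene at each day, from a separate fit of 12 libraries per day, with 95% intervals. Every interval spans zero, and the IGFBP2 values of 0.83 at D14 and 0.55 at D25 have intervals whose lower ends lie at -0.090 and -0.0039.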

How the data were processed

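Total RNA of 60 mammary biopsies was sequenced as poly(A) libraries with single-end reads. Per the labels and the study's methods, the authors trimmed reads with Trim Galore 0.4.1, mapped them with TopHat2 2.0.13, assembled transcripts with Cufflinks 2.2.1 and deposited raw read counts per assembled locus from HTSeq. The study's methods name bosTau7 and the processing notes UMD3.1 as the genome, and the strand setting is not given in the sources used here, so antisense transcripts cannot be told apart. Symbols were paired with loci through the study's supplementary lists, held here in part. The members and gene lists were chosen with earlier results of these data known. Named genes were the 4 members, the paired IGF system genes and the 5 loci most alike to each member. Values of 3 of these genes are not reported here.

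The filter on low values required 1 CPM or more in 6 or more of the 60 libraries and left 14714 loci. Time was tested in 1 fit of 60 libraries with day means, and HT against CL in 12 libraries per day, with edgeR 4.0.16 (TMM, quasi-likelihood F-test, R 4.3.3). Each FDR is a Benjamini-Hochberg value over all 14714 loci with a threshold of 0.05. Standard errors came from the fit. Exact tests used log2 CPM with a prior count of 2, as 4096 sign changes over 12 cows or 924 divisions of 12 cows into 6 and 6 (smallest p 0.00216), and correlations used 100000 resamples or, for 7 cows, all orders. Totals of 20525083 to 26183990 reads put at least 25 reads behind each member in each library. The scripts were tested on simulated data. Alternatives were DESeq2 1.42.0, other scalings, filters, dispersions and priors, the cow as a block, and leaving out each cow. The same cows were sampled at every day, and libraries of 1 cow deviated together from the day means (mean r 0.30 over 120 pairs, against -0.03 over 1320 pairs of different cows). Replicates are separate cows.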

Additional observations from a re-analysis of the deposited data

Results flagged for a closer look

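In 5 of 40 groups of 6 cows (4 genes, 5 days, HT and CL), 1 cow lay far from the other 5 by Dixon's test, with a gap above 0.625 of the group's range. That limit flags about 1 in 20 groups where values are normally distributed and groups are independent. The test was run on CPM without logs, where high values stretch the range, and each flagged value was the highest of its group. The groups also share cows, so the number flagged is not compared with that rate. Before treatment at D-3, IGFBP2 was 38.6 CPM in CL cow 8686 against 8.13 to 18.6 CPM in the other CL cows, and 59.9 CPM in HT cow 8513 against 2.76 to 22.4 CPM in the other HT cows. Cow 8513 was also apart for IGFBP5 at D-3, with 203 CPM against 75.4 to 105 CPM. At D14, IGFBP5 was 559 CPM in CL cow 7965 against 48.7 to 109 CPM, in the library with 6.19 CPM of KRT7 and KRT19 and 5393 CPM of DCN. At D25, IGFBP2 was 41.3 CPM in HT cow 8660 against 12.8 to 21.7 CPM, and the late libraries of this cow were the ones that correlated more with the earlier libraries of cow 8513.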

How the results depend on the processing

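IGFBP2 and IGFBP5 kept their direction and their calls at D3 vs. D-3 and D25 vs. D3 in each of 26 alternatives. No alternative gave a call between HT and CL for the 4 genes, and the changes of sign there were of values that were not called. IGFBP2 at D-3, with 25 reads at the lowest, had the least depth. The cause of each change below was not tested. Calls over all loci are set beside the counts for the cow block, DESeq2 and plain library sizes. For the other alternatives they are not given, so counts of genes there are not read as a result about these genes.

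With the cow as a replicate block, IGF1 at D7 vs. D-3 was called (0.81), which gave 1 member and 3 IGF system genes there. The block called 13.3% of all loci in that comparison and the main fit 8.46%. With cows 8513 and 8660 exchanged from D14 on in the block, IGF1 (0.75) and IGF1R (-0.32) were called at D7 vs. D3, which made 4 members and 8 IGF system genes, and IGF1 at D7 vs. D-3 was 0.82, again with 1 and 3 genes. Tagwise dispersions (0.74) and DESeq2 (0.75) also called IGF1 at D7 vs. D-3, with 1 and 3 genes each. DESeq2 called 1598 of the 14714 loci in that comparison. As a change since D-3 with the block, IGFBP5 in HT vs. CL at D7 was -0.28. With only the 2 days compared, IGF1R at D3 vs. D-3 (0.38) was not called, and 5 IGF system genes were, against 0 at D7 vs. D-3.

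With plain library sizes, IGFBP2 (-1.24) and IGFBP5 (-1.20) at D7 vs. D3 were not called. That left 0 members and 0 IGF system genes there, beside 36 called among all loci. At D7 vs. D-3 it left 0 IGF system genes, beside 23 called among all loci. The sign turned for IGF1R at D25 vs. D14 (0.036) and D25 vs. D-3 (0.55), IGFBP2 at D25 vs. D-3 (0.18), IGFBP5 at D7 and D25 vs. D-3 (0.33 and 0.23), and in HT vs. CL for IGF1 at D7 (-0.081), IGF1R at D3 and D7 (-0.018 and -0.10) and IGFBP5 at D7 (-0.12). In the exact tests the within-cow differences became 0.047 and 0.71 for IGF1R at D25 vs. D14 and D25 vs. D-3, and 0.63 and 0.51 for IGFBP5 at D7 and D25 vs. D-3. HT minus CL became 0.027 and -0.014 for IGF1 at D-3 and D7, 0.11 and -0.099 for IGF1R, and 0.094 for IGFBP2 at D-3. For the change since D-3 it became -0.041 for IGF1 at D7 and -0.10, -0.20 and -0.084 for IGF1R at D3, D7 and D14. For r of IGFBP2 with the milk protein share it gave -0.072.

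Without the D14 library of cow 7965 the sign turned for IGF1 (-0.013) and IGFBP5 (-0.051) at D14 vs. D7 and IGFBP5 at D14 vs. D-3 (-0.099). It turned for IGF1R at D14 vs. D-3 with RLE size factors (-0.0029), TMM without milk protein genes (-0.0033) and DESeq2 (-0.0023), at D25 vs. D-3 with a stricter filter (0.0044) and in HT vs. CL at D3 with no filter (-0.00034). Without cows 8513 and 8660, IGFBP5 at D7 vs. D-3 was 0.017 and 2 IGF system genes were called there. Without the 2 cows farthest from the median, r with the milk protein share was -0.62 for IGF1, -0.12 for IGFBP2 and 0.031 for IGFBP5.

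On leaving out each cow in turn, a call or a sign changed within these ranges. Between days, IGF1 ran from -0.0095 to 0.062 at D14 vs. D7 and 0.62 to 0.86 at D7 vs. D-3. IGF1R ran from 0.34 to 0.42 at D3 vs. D-3, -0.38 to -0.28 at D7 vs. D3, -0.098 to 0.010 at D14 vs. D7, -0.079 to 0.058 at D25 vs. D14, -0.034 to 0.068 at D14 vs. D-3 and -0.054 to 0.050 at D25 vs. D-3. IGFBP2 ran from -1.51 to -1.22 at D7 vs. D3, -0.045 to 0.45 at D7 vs. D-3 and -0.33 to 0.10 at D25 vs. D-3, and IGFBP5 from -1.51 to -1.17, -0.17 to 0.044 at D7 vs. D-3, -0.038 to 0.56 at D14 vs. D7 and -0.13 to 0.58 at D14 vs. D-3. In HT vs. CL, the first 4 days gave -0.13 to 0.36, -0.35 to 0.33, -0.046 to 0.24 and -0.053 to 0.17 for IGF1. IGF1R ran from -0.070 to 0.11, -0.093 to 0.075, -0.035 to 0.13, -0.047 to 0.11 and, at D25, -0.14 to 0.011. IGFBP2 at D-3 ran from -0.26 to 0.68. IGFBP5 over the 5 days ran from -0.022 to 0.43, -0.37 to 0.27, -0.16 to 0.16, -0.79 to 0.39 and -0.25 to 0.12. Members called numbered 0 to 3 at D7 vs. D3 and 0 to 1 at D7 vs. D-3, and IGF system genes 3 to 10 at D3 vs. D-3, 0 to 6 at D7 vs. D3 and 0 to 3 at D7 vs. D-3.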
